A study of Mus musculus with 5 samples.

Results

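The 6 genes described here encode parts of the sodium pump and chloride cotransporters of glial ion homeostasis: *Atp1b1*, *Atp1b2* and *Atp1b3*, *Fxyd1*, *Slc12a2* and *Slc12a4*. They were chosen by name and function, with earlier results of these data known. Every probe set annotated to them alone was taken, which gave 13 probe sets for 6 of the 18193 genes named singly on the array. RNA came from optic nerves of C57BL/6 mice aged P35 to P45, which were cut from the animal, cleaned of arachnoid and kept as organotypic cultures for 3 DIV with the PI3K inhibitor LY294002. The arrays were 3 of the low concentration (L-LY29, labelled 0.5 µM) and 2 of the high concentration (H-LY29, labelled 50 µM). The sample treatment entries name the agent as LY295002, taken here as the same compound, and the methods give a higher low concentration for adult nerves than the labels, so the dose of the L-LY29 arrays was not settled. Untreated arrays were not analysed here, and differences are in log2 signal, taken as L-LY29 minus H-LY29. The severed nerve itself keeps its glia, vessels and meningeal remnants and the cut axons, without the neuronal cell bodies. The methods state that nerves were taken out with the retina attached and then cleaned of adjoining tissue. Markers of ocular surface epithelium were bright on the L-LY29 arrays, with a summed linear signal of 4000 to 23300 against 161 to 188 in H-LY29. The RNA was thus not shown to be from nerve alone. Whole-nerve RNA was measured, so fewer cells of a type and less RNA per cell cannot be told apart.

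The sodium pump (Na,K-ATPase) exports sodium and imports potassium at the cost of ATP, and is built from a catalytic alpha subunit and a glycosylated beta subunit, to which a small FXYD protein may bind. The gradients that it builds drive secondary transporters. Among these, the cotransporter NKCC1 carries sodium, potassium and chloride into cells, and the KCC cotransporters carry potassium and chloride out. In white matter, astrocytes and oligodendrocytes use this machinery to clear the potassium that firing axons release. The catalytic alpha subunits of these glia were not analysed here.

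All 13 probe sets passed the filter on low signals and were tested by limma over 27001 probe sets, with Benjamini-Hochberg adjustment over all of them. At an adjusted p under 0.05, 5 of the 13 were higher in L-LY29, 5 lower, and the remaining 3 did not pass. Of the 5 higher ones, 4 had both dose means above the filter level of 4.77, and *Atp1b1* 1455949_at passed the filter through its L-LY29 signal. Without H-LY29 replicate 1, and likewise without replicate 2, only 3 were called lower. Calls were the rule on these arrays: 71.8% of all tested probe sets passed, 28.9% higher and 42.9% lower in L-LY29. The groups did not overlap for 11 of the 13 probe sets, where 81.3% of all tested probe sets did not overlap. The member counts therefore lie near the background. With 1 probe set for each gene, that of highest mean signal, *Atp1b3* was higher, *Atp1b1*, *Fxyd1* and *Slc12a4* were lower, and *Atp1b2* and *Slc12a2* did not pass. That is 4 of 6 genes, against 73.8% of 12935 tested genes, of which 27.1% were higher and 46.6% lower. The median over the 6 genes was −0.94, or −0.62 without L-LY29 replicate 2, and that of all tested genes was −0.26.

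A design of 3 against 2 arrays has 10 arrangements. The exact permutation test used here doubles the smaller tail, and the smallest two-sided p that it then allows is 0.2. This was the value for each of the 11 member probe sets whose groups did not overlap. The adjusted p-values given below come from limma, which pools the spread over all probe sets. They measure only the spread between these arrays, since no source used here ties single mice or nerves to an array.

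**Figure D1:**
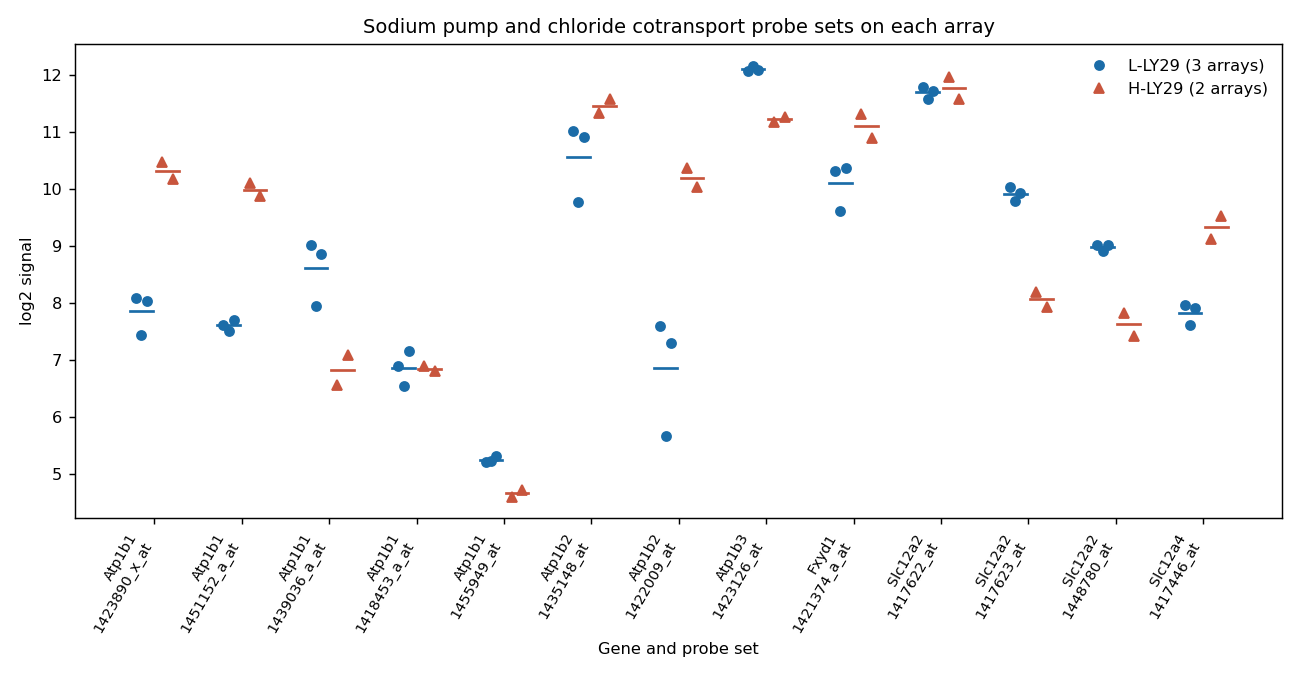
Log2 signal (vertical axis) of the 13 probe sets of the 6 genes (horizontal axis) on 3 L-LY29 arrays (circles) and 2 H-LY29 arrays (triangles), with the mean of each group as a line. *Atp1b3* lies higher on the L-LY29 arrays, *Fxyd1*, *Slc12a4* and *Atp1b2* lie lower, and the probe sets of *Atp1b1* and of *Slc12a2* differ among themselves.

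Among the beta subunits, which escort the catalytic subunit to the membrane, *Atp1b3* had an even signal within each dose. Its log2 signal was 12.07, 12.16 and 12.08 on L-LY29 replicates 1, 2 and 3, and 11.17 and 11.25 on H-LY29 replicates 1 and 2. All L-LY29 arrays lay above both H-LY29 arrays, with an SD of 0.05 (n = 3) in L-LY29 and 0.06 (n = 2) in H-LY29. They differed by 0.89 (standard error 0.05, adjusted p = 1.10e-04 by limma), a signal 1.85 times as high in L-LY29. Its size was unremarkable on these arrays, where 52.6% of tested probe sets had a smaller one.

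*Atp1b2* encodes the beta2 subunit, also known as the adhesion molecule on glia and typical of astrocytes. On its dimmer probe set, 1422009_at, the signal was 7.60, 5.67 and 7.30 in L-LY29 and 10.36 and 10.02 in H-LY29. The groups were far apart, and L-LY29 replicate 2 lay well below the other L-LY29 arrays. The dose difference was −3.33 (standard error 0.62, adjusted p = 0.00561 by limma), larger in size than that of 96.8% of tested probe sets, and the signal was 10.1 times as high in H-LY29. On its brighter probe set, 1435148_at, the signal was 11.01, 9.76 and 10.92 in L-LY29 and 11.32 and 11.58 in H-LY29. The L-LY29 arrays were again lower without overlap, but replicate 2 widened their spread to an SD of 0.69 (n = 3). The difference of −0.89 did not pass (adjusted p = 0.110, 95% interval −1.95 to 0.18). Without L-LY29 replicate 2 it was −0.49 and passed (adjusted p = 0.0233 by limma). The call on 1422009_at ended without H-LY29 replicate 1 (−3.17, adjusted p = 0.0854 by limma) and without H-LY29 replicate 2 (−3.50, adjusted p = 0.0697 by limma).

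*Atp1b1*, the beta1 subunit found in most tissues, was represented by 5 probe sets that went both ways. On 1423890_x_at, the brightest, the signal was 8.09, 7.44 and 8.04 in L-LY29 and 10.47 and 10.16 in H-LY29. On 1451152_a_at, which is annotated to the same sequence record, it was 7.61, 7.51 and 7.69 in L-LY29 and 10.10 and 9.86 in H-LY29. Both showed lower L-LY29 signals without overlap. The differences were −2.46 (standard error 0.24, adjusted p = 5.20e-04 by limma) and −2.38 (standard error 0.11, adjusted p = 6.62e-05 by limma), so that the signal was 5.52 and 5.19 times as high in H-LY29. These differences exceeded in size those of 90.7% and 89.6% of tested probe sets.

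The other *Atp1b1* probe sets did not share that direction. On 1439036_a_at the signal was 9.01, 7.95 and 8.85 in L-LY29 and 6.56 and 7.09 in H-LY29. The L-LY29 arrays were the higher ones here, with a difference of 1.78 (standard error 0.37, adjusted p = 0.00907 by limma). On 1455949_at, the dimmest, the signal was 5.21, 5.22 and 5.31 in L-LY29 and 4.60 and 4.72 in H-LY29, a difference of 0.59. Its H-LY29 mean of 4.66 lay under the filter level, so its adjusted p of 0.00365 by limma is given as a description. The highest mean of a poly-A spike-in probe set in H-LY29, where these spike-ins lay near background, was 4.14. On 1418453_a_at the signal was 6.88, 6.54 and 7.15 in L-LY29 and 6.88 and 6.81 in H-LY29. The groups overlapped there, and the difference was 0.02 (adjusted p = 0.949, 95% interval −0.49 to 0.52). The call on 1439036_a_at ended without H-LY29 replicate 1 (1.51, adjusted p = 0.112 by limma) and without H-LY29 replicate 2 (2.05, adjusted p = 0.0626 by limma).

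Probe sets of 1 gene were then compared directly, as the brightest minus each other probe set on every array, over 10521 such pairs. The dose difference of *Atp1b1* 1423890_x_at minus that of 1439036_a_at was −4.24 (standard error 0.27, adjusted p = 3.67e-05 by limma). Against 1451152_a_at the value was −0.09 and did not pass (95% interval −0.52 to 0.34). For *Atp1b2* the brighter probe set differed from the dimmer one by 2.45 (standard error 0.27, adjusted p = 3.27e-04 by limma). Such disagreement was common, since 77.8% of all pairs passed. Of all genes with 2 or more probe sets past the threshold, 43.3% had such probe sets both above and below 0. Which transcript each probe set reads was not tested.

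**Figure D2:**
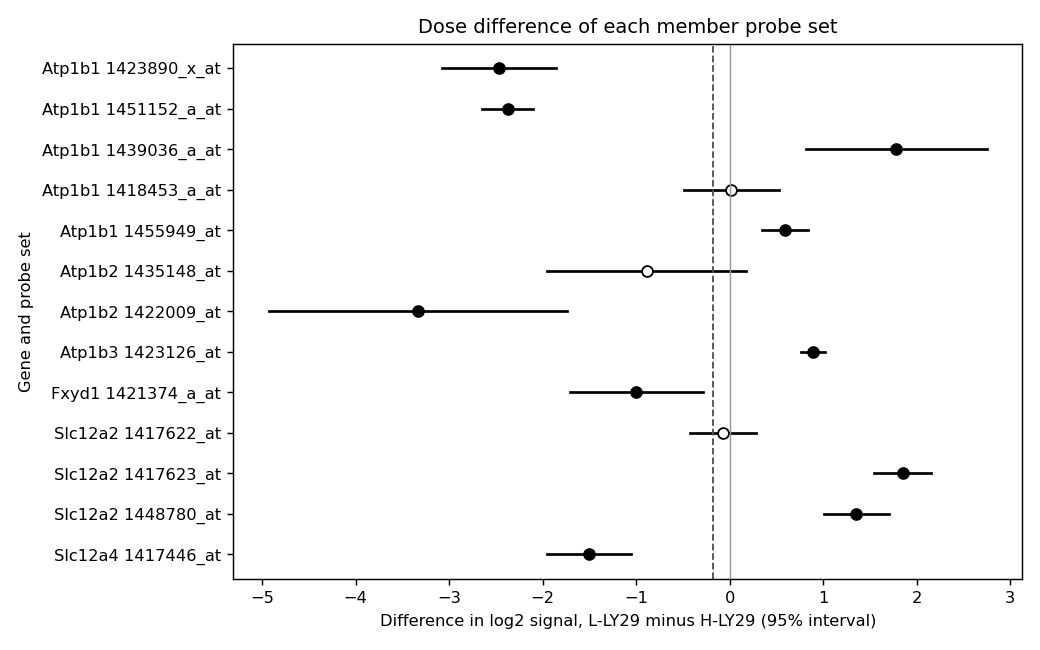
Difference in log2 signal between the doses (horizontal axis, L-LY29 minus H-LY29) for each of the 13 probe sets (vertical axis), with 95% intervals from limma as bars. Filled points passed at an adjusted p under 0.05, open points did not, and the dashed line is the median of all tested probe sets, −0.18. *Atp1b1* spans −2.46 to 1.78 and *Slc12a2* −0.07 to 1.85.

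*Fxyd1* encodes phospholemman, a small membrane protein that binds the pump and lowers its activity until it is phosphorylated. Its log2 signal was 10.31, 9.61 and 10.37 in L-LY29 and 11.31 and 10.88 in H-LY29. Every L-LY29 array lay below both H-LY29 arrays, and L-LY29 replicate 2 was the lowest. The dose difference was −1.0 (standard error 0.28, adjusted p = 0.0236 by limma), a signal 2.0 times as high in H-LY29. The call ended without H-LY29 replicate 1 (−0.79, adjusted p = 0.201 by limma) and without H-LY29 replicate 2 (−1.21, adjusted p = 0.0931 by limma).

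*Slc12a2* encodes NKCC1, which loads cells with chloride. On its brightest probe set, 1417622_at, the signal was 11.79, 11.57 and 11.71 in L-LY29 and 11.95 and 11.57 in H-LY29. The doses overlapped, and the difference was −0.07 (adjusted p = 0.651, 95% interval −0.42 to 0.28). The other 2 probe sets gave another picture. On 1417623_at the signal was 10.02, 9.78 and 9.93 in L-LY29 and 8.19 and 7.93 in H-LY29, a difference of 1.85 (standard error 0.12, adjusted p = 1.52e-04 by limma). On 1448780_at it was 9.01, 8.90 and 9.01 in L-LY29 and 7.81 and 7.42 in H-LY29, a difference of 1.35 (standard error 0.14, adjusted p = 6.02e-04 by limma). Both were higher on every L-LY29 array, 3.60 and 2.56 times as high in linear signal. All 3 probe sets are annotated to 1 sequence record, yet the brightest differed from the other 2 by −1.92 and −1.43 (adjusted p = 3.23e-05 and 1.12e-04 by limma).

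*Slc12a4* encodes KCC1, which extrudes potassium with chloride and takes part in volume control. Its signal was 7.95, 7.60 and 7.90 in L-LY29 and 9.13 and 9.53 in H-LY29. The L-LY29 arrays were lower without overlap. The difference was −1.51 (standard error 0.17, adjusted p = 9.77e-04 by limma), and the signal was 2.84 times as high in H-LY29. Its call held without each array in turn and under every other setting tried, where it ranged from −1.71 to −1.09.

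*Fxyd1* and *Slc12a4* are the members lower in L-LY29 on their only probe set, and the 250 bases before a transcript start of each are shown from RefSeq (GRCm38.p6, 5′ to 3′ on the minus strand), as the regulatory sequence nearest to both. The stretches are chr7:31054854-31055103 for *Fxyd1* and chr8:105966116-105966365 for *Slc12a4*. Capitals mark matches on either strand to the GC box GGGCGG, the only one of the searched motifs found in them.
Fxyd1: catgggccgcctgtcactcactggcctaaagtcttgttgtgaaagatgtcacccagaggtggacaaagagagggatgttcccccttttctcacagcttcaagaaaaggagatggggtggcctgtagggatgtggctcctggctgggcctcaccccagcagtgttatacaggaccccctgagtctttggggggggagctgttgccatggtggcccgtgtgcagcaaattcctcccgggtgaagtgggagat
Slc12a4: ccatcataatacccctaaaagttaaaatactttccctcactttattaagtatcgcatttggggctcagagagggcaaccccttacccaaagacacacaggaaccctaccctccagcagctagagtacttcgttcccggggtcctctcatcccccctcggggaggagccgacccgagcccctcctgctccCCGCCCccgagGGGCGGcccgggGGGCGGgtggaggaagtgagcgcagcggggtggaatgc
The *Slc12a4* stretch held 3 GC boxes and 13 CpG dinucleotides, with a GC content of 60.8%. The *Fxyd1* stretch held 0 GC boxes and 3 CpG, with a GC content of 57.2%. Among 32851 promoter stretches of that length, 32.7% held a GC box, and the medians were 6.0 CpG and a GC content of 52.4%. The FOXO core GTAAACA, searched because FOXO factors act downstream of PI3K, had no match in either stretch and was present in 3.17% of all. The E-box CACGTG (6.02% of all) and the TATA box TATAAA (12.4%) had no match either. The matches are descriptions of letters in these windows.

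Within L-LY29, replicate 2 stood apart for these genes. It was the lowest L-LY29 array on 11 of the 13 probe sets, where it was the lowest on 26.2% of all tested probe sets. Its signal minus the mean of replicates 1 and 3 was −1.78 and −1.2 log2 units on the probe sets of *Atp1b2*, −0.72 for *Fxyd1* and −0.33 for *Slc12a4*. On the probe sets of *Atp1b1* it ran from −0.98, on 1439036_a_at, which was higher in L-LY29, to −0.04. On those of *Slc12a2* it ran from −0.19 to −0.11. For *Atp1b3* it was 0.09. Of 12 tested astrocyte markers, 10 were lowest on the same array, with a median shift of −0.71. All 9 tested markers of ocular surface epithelium were lowest there too, with a median shift of −1.60, as was 1 of 9 microglia markers, with a median of 0.08. The part of these markers in the member values was not tested.

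Cell type markers were read beside the same background, 46.6% of all genes lower and 27.1% higher in L-LY29. Astrocyte markers were lower in 6 of 12 tested genes (50.0%), near that background, with 0 higher and 6 not passing, a median of −1.52, and a summed linear signal of 6680 to 10300 in L-LY29 against 21200 to 21400 in H-LY29. Among them *Sox9* (−3.17), *Aldh1l1* (−3.06) and the water channel gene *Aqp4* (−2.94) differed most. Of the tested probe sets of *Sox9*, 1 of 2 was called, and of those of *Aqp4*, 1 of 3. *Gfap* did not pass at −0.33 on its brightest probe set, while its 2 other probe sets were called lower. Without L-LY29 replicates 1, 2 and 3 in turn, 7, 9 and 8 of the 12 were called lower. Fewer were called lower without either H-LY29 array than with all arrays. The median was then −1.32 without H-LY29 replicate 1 and −1.43 without H-LY29 replicate 2. Of 9 fibroblast markers, 8 were lower and 1 was higher, with summed signals of 3490 to 4810 and 15500 to 19300, and the collagen gene *Col1a1* led at −6.64. Pericyte and smooth muscle markers were lower in 3 of 6, also 50.0% (2220 to 6210 against 7470 to 8830), of which *Kcnj8* passed the filter through its H-LY29 signal, and OPC markers lower in 4 (44.4%) and higher in 2 of 9 (1900 to 2610 against 3570 to 4390), with 2 lower without H-LY29 replicate 1. MOL markers were bright on all arrays, 7 of 11 higher and 4 lower, with sums of 85100 to 88300 and 72400 to 73800. Of 9 microglia markers, 7 were higher and 2 were lower, *Tmem119* (−0.45) and *C1qb* (−1.14), with sums of 11900 to 14300 and 7870 to 8630. *C1qb* had 1 probe set called in each direction. Of 8 endothelial markers, 4 were higher and 2 were lower, *Flt1* (−1.06) and *Vwf* (−1.60), with sums of 1210 to 1560 and 1040 to 1120. All 6 tested neuron and axon markers were higher (1520 to 1740 against 446 to 513), and 1 of them, *Syt1*, passed the filter through its L-LY29 signal. Epithelial markers summed to 4000 to 23300 on the L-LY29 arrays, against 161 to 188 on the others. In 7 of the 9 the H-LY29 mean lay under the filter level, so they passed through L-LY29 and no count of their calls is given. Of 8 listed retina markers only *Sag* and *Rlbp1* passed the filter on low signals. The part of any of these cell types in the pump and cotransporter values was not tested.

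**Figure D3:**
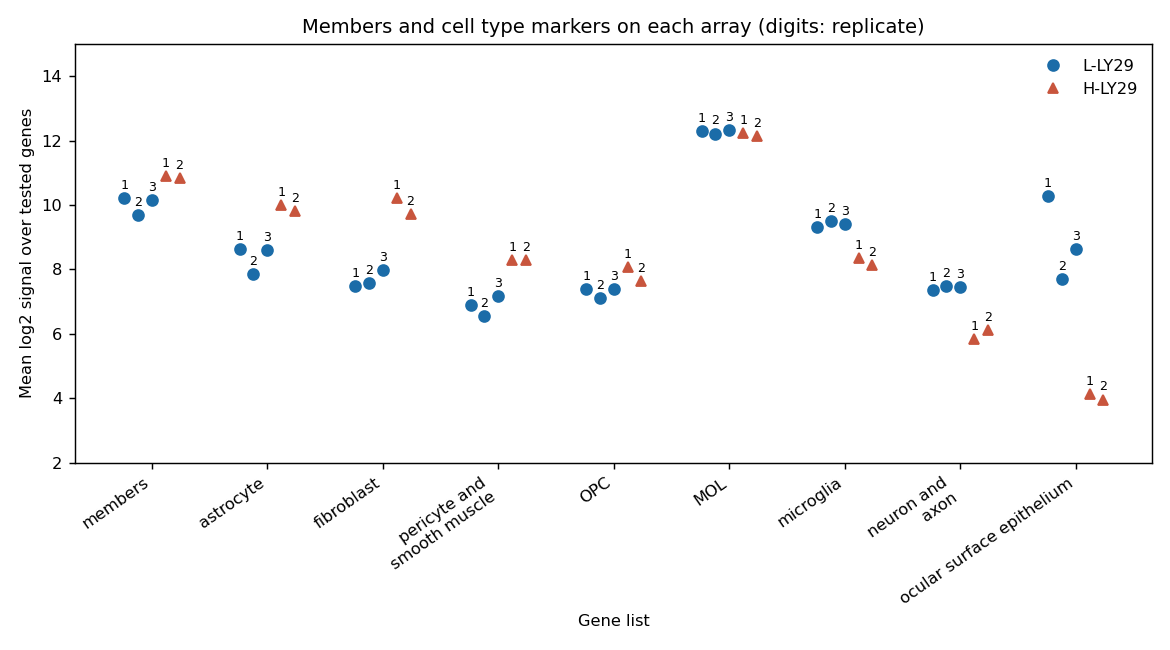
Mean log2 signal over the tested genes of each list (vertical axis) on 3 L-LY29 arrays (circles) and 2 H-LY29 arrays (triangles), with replicate numbers. The 6 members, at 10.20, 9.69 and 10.17 in L-LY29 and 10.89 and 10.83 in H-LY29, and the astrocyte markers are both lowest on L-LY29 replicate 2.

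Other facts of the arrays moved with dose. Poly-A spike-ins averaged 9.97 to 10.45 on the L-LY29 arrays and 3.17 on both H-LY29 arrays, so dose and handling of the 2 groups of arrays cannot be told apart. The 3′ probe set of actin exceeded the 5′ one by 0.39 to 0.48 in L-LY29 and by 0.84 to 0.99 in H-LY29. Arrays of a dose correlated at 0.990 to 0.995 over all probe sets and arrays of different doses at 0.882 to 0.892 (Pearson, across probe sets). Equal values to the last digit on at least 2 L-LY29 arrays occurred at 33.9% of tested probe sets, which narrows their spread, and at 1.61% between the H-LY29 arrays. Among the member probe sets 1 such tie occurred, between L-LY29 replicate 1 and H-LY29 replicate 1 on *Atp1b1* 1418453_a_at.

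For related ion transport, 73 genes in 7 lists were set beside the members, of which 63 had a probe set of their own and 52 passed the filter. Of these 52, the genes higher in L-LY29 numbered 11 (21.2%) and those lower 24 (46.2%), with 17 not passing. The background was 27.1% and 46.6% of all genes, so the counts lie near it, and the median of −0.41 compares with −0.26 over all genes. Genes named beside a count of 5 or fewer that the naming rule did not give were chosen after their values were seen.

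Of 8 other pump subunits, only *Atp4b*, the beta subunit of the gastric proton pump, passed the filter. It was higher in L-LY29 by 2.35 (adjusted p = 1.36e-04 by limma), with a signal of 7.49 on all 3 L-LY29 arrays and 5.34 and 4.94 on the H-LY29 arrays. Its L-LY29 values were equal to the last digit (SD 0), as at 7.21% of tested probe sets. Such ties narrow the spread on which the adjusted p rests. The FXYD and pump-associated proteins went both ways, 2 of 9 higher (22.2%), 3 lower (33.3%) and 4 not passing, with a median of 0.02. Among all tested genes 27.1% were higher and 46.6% lower. The FXYD protein gene *Fxyd5*, known as dysadherin, was at −1.17 and *Fxyd6* at −0.63, in the direction of *Fxyd1*. *Nkain1* was at −0.15, also with equal values on all 3 L-LY29 arrays. *Nkain2*, which encodes a protein that binds the beta1 subunit, and *Fxyd4* were at 1.17 and 1.06, and *Fxyd4* passed the filter through its L-LY29 signal. After quantile normalization 3 of these 9 genes were higher and 1 was lower, with a median of 0.14.

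Of the other SLC12 cotransporters, 3 of 6 with a probe set passed the filter and 0 were called by limma, with 0 at an unadjusted p under 0.05. They were *Slc12a5* (KCC2, the neuronal chloride extruder) at 0.05, *Slc12a9* at −0.08 and *Slc12a7* (KCC4) at −0.52, with a 95% interval of −1.18 to 0.15 for the last. After quantile normalization 1 of the 3 was called higher, and without H-LY29 replicate 2 it was 1 lower. *Slc12a4* was thus the only tested KCC-type gene that was called as deposited, and a difference between it and the others was not tested.

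The WNK kinases sense chloride and act through the kinases SPAK (*Stk39*) and OSR1 (*Oxsr1*), which switch NKCC1 on and KCCs off by phosphorylation. Of 10 tested genes of this cascade, 4 (40%) had a higher signal in L-LY29 and 5 (50%) a lower one. Among all tested genes 27.1% were higher and 46.6% lower. Only *Nedd4l* did not pass on its brightest probe set, and it had 1 other probe set called in each direction. The median of the cascade, −0.34, became 0.28 without H-LY29 replicate 2. *Oxsr1* was at 1.47 (standard error 0.04, adjusted p = 4.04e-05 by limma), with signals of 12.92, 12.98 and 12.93 in L-LY29 and 11.50 and 11.45 in H-LY29. *Wnk1* was at 0.94, *Stk39* at 0.42 and *Cul3*, a ubiquitin ligase scaffold that serves WNK turnover, at 0.36. *Wnk2* (−1.35, with 1 probe set called in each direction), the kinase *Sgk1* (−1.19), which PI3K signalling activates, and *Wnk3* (−1.06) were lower. The scaffold genes *Cab39l* and *Cab39* were at −0.83 and −0.51, and *Cab39* had 1 probe set called in each direction.

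Chloride channels and anion exchangers were lower in 11 of 16 tested genes (68.8%), 1 was higher and 4 did not pass, with a median of −1.04. Among all tested genes 46.6% were lower. The volume-regulated anion channel subunits *Lrrc8a* and *Lrrc8d* were at −3.19 (standard error 0.30) and −2.75 (standard error 0.06), and the glial channel *Clcn2* at −2.43 (standard error 0.13; adjusted p = 4.84e-04, 4.04e-05 and 1.03e-04 by limma). *Lrrc8a* had signals of 8.65, 7.98 and 8.98 in L-LY29 and 11.70 and 11.76 in H-LY29, without overlap. The endosomal exchanger *Clcn5* was the one higher gene, at 0.88 on its brightest probe set, with 2 probe sets called higher and 1 lower. *Clcn3*, *Clcn4*, *Slc4a2* and *Slc4a3* did not pass on their brightest probe sets. Of its other probe sets *Clcn3* had 1 called higher and 2 lower, and *Clcn4* had 1 called higher. The median was −0.65 after quantile normalization, with 10 genes lower and 3 higher. Without any 1 of the L-LY29 arrays 0 genes were called higher, and without either H-LY29 array 2 were.

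Transporters that run on the sodium gradient went both ways, 3 of 7 higher (42.9%), 2 lower (28.6%) and 2 not passing. Among all tested genes 27.1% were higher and 46.6% lower. The median of the list was 0.47, against 0.92 after quantile normalization and 0.76 with H-LY29 replicate 1 left out. The bicarbonate transporter *Slc4a8* was at 2.31, *Slc4a10* at 0.71 and the mitochondrial sodium-calcium exchanger *Slc8b1* at 0.63. The astrocytic bicarbonate cotransporter *Slc4a4* was at −2.99 and the glutamate transporter *Slc1a3* at −2.38, with another of its probe sets called in the other direction. Without H-LY29 replicate 1, and without replicate 2, 0 genes of this list were called lower. *Slc8a3* (0.47) and *Slc1a2* (−1.28) did not pass on their brightest probe sets, and 1 of the 4 tested probe sets of *Slc1a2* was called lower. *Slc1a2* and *Slc1a3* are also among the astrocyte markers.

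Partners of the pump in astrocyte potassium and water handling were lower in 4 of 7 tested genes (57.1%), with 0 higher and a median of −1.49. Among all tested genes 46.6% were lower and 27.1% higher. After quantile normalization 2 of the 7 were higher and 4 lower. This list shares *Aqp4*, *Gja1* and *Gjb6* with the astrocyte markers and *Clcn2* with the chloride channels, so it is not a separate result for them. *Mlc1*, a membrane protein of perivascular end-feet that associates with the pump beta1 subunit, was at −3.43 (standard error 0.82, adjusted p = 0.0141 by limma), *Aqp4* at −2.94, *Clcn2* at −2.43 and the connexin gene *Gja1* at −1.49, with 5 of its 6 probe sets called lower and 1 higher. On the *Mlc1* probe set the signal was 9.53, 7.07 and 9.45 in L-LY29 and 12.17 and 12.05 in H-LY29, and replicate 2 was again the lowest. The inward rectifier *Kcnj10* (0.15), *Hepacam* (−0.01) and *Gjb6* (−0.89) did not pass on their brightest probe sets, and 1 of the 2 tested probe sets of *Hepacam* was called lower.

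**Figure D4:**
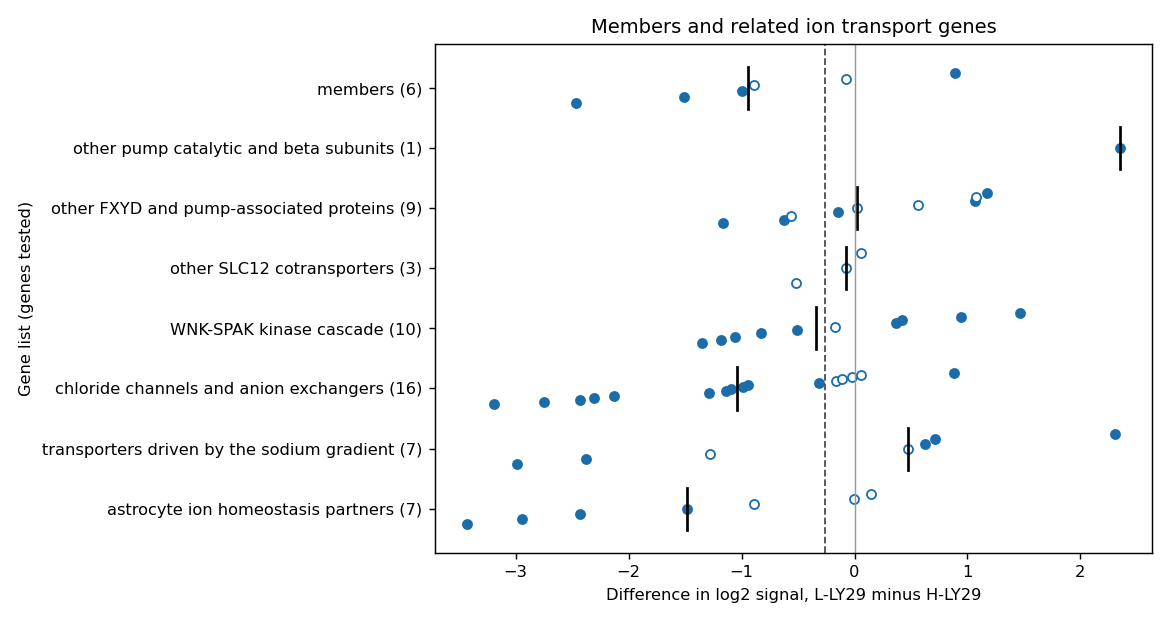
Difference in log2 signal (horizontal axis, L-LY29 minus H-LY29) of the tested genes of each list (vertical axis), 1 point a gene, filled where the adjusted p was under 0.05, with the median of a list as a bar and a dashed line at −0.26, the median over every tested gene. The members span −2.46 to 0.89, and the chloride channel list has the most genes on the lower side.

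For each member, the tested gene with the nearest log2 profile over the 5 arrays, each centred on its own mean, was found by Euclidean distance. It was *Morc4* for *Atp1b1* (distance 0.16), *Noct* for *Atp1b2* (0.21), *Psmd10* for *Atp1b3* (0.022), *Col15a1* for *Fxyd1* (0.10), *Dnajc30* for *Slc12a2* (0.065) and *Slc9a5* for *Slc12a4* (0.081), in log2 units. With 5 arrays in 2 doses these are descriptions of the profile.

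**Figure D5:**
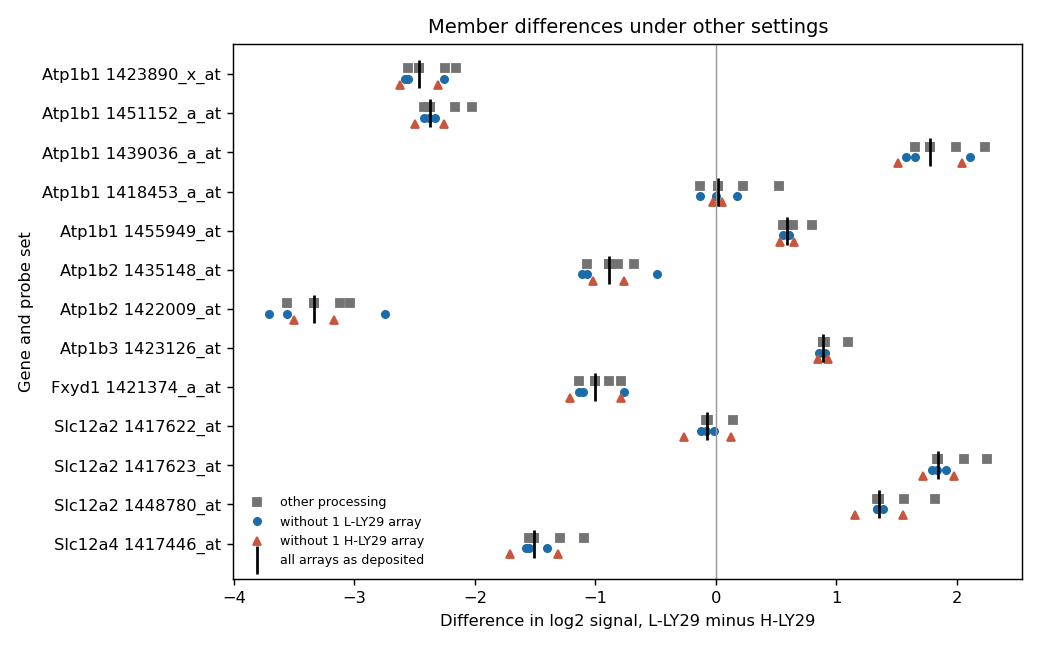
Difference in log2 signal (horizontal axis, L-LY29 minus H-LY29) of the 13 probe sets (vertical axis) as deposited (black bar), under other processing (squares) and without 1 L-LY29 array (circles) or 1 H-LY29 array (triangles). The probe sets that cross 0 are *Atp1b1* 1418453_a_at, from −0.13 to 0.53, and *Slc12a2* 1417622_at, from −0.27 to 0.14.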

How the data were processed

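Biotin-labelled cRNA was made by the standard Affymetrix procedure, per the labels. The authors used Affymetrix GeneChip mouse arrays and normalised the data with the MAS-5 algorithm in GeneSpring, per the study's methods. On 5 arrays, the deposited log2 signals cover 45101 probe sets. No source used here states the scaling target. Values were used as deposited. GEO's platform annotation named 1 gene for 34945 probe sets and several for 932, and 9211 had none. The 64 control probe sets and probe sets with a mean under the 40th percentile (4.77) were left out, which kept 27001 probe sets and 12935 genes, each gene by its brightest probe set.

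The dose comparison used limma 3.58.1 under R 4.3.3 (lmFit, eBayes with an intensity trend, two-sided), with Benjamini-Hochberg adjustment. The 2 fits were tested on simulated data. Of 200 changed probe sets among 27001, 11 of 60 changed by 0.5, 32 of 73 by 1 and 50 of 67 by 2 log2 units were called. Of 200 changed among 12935 genes, these were 15 of 69, 38 of 67 and 55 of 64. Unchanged rows that were called numbered 0 for the probe sets and 4 for the genes. On the arrays a far larger share was called, 71.8% of probe sets, so these rates need not hold there. Precision is limited by the number of arrays.

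The members and lists were chosen with earlier results of these data known. Named were all members, up to 3 called genes in each direction of each list with the largest difference, up to 3 markers of a cell type and the nearest profile to each member. Alternatives were no filter, a 60th percentile filter, a floor at the 10th percentile, quantile normalization, equal array medians and no trend. Further ones were a replicate block, run without L-LY29 replicate 3, and leaving out each array. The probe sets of a gene were also averaged, and genes with all probe sets called 1 way were counted. The comparison of probe sets within a gene was added after seeing the data.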

Additional observations from a re-analysis of the deposited data

How the results depend on the processing

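Over the 13 probe sets and their alternatives, 141 of 155 values kept the direction and the side of the threshold, 7 lost the call, 2 gained it and 5 reversed. The probe sets called lower numbered 3 to 6 with each array left out, against 5 with all arrays, and 3 without either H-LY29 array, where the remaining H-LY29 array was assumed to vary like the L-LY29 arrays. Reversed were *Atp1b1* 1418453_a_at, at −0.13 under the replicate block and −0.13 to 0.17 with each array left out, and *Slc12a2* 1417622_at, at 0.14 with equal array medians and −0.27 to 0.12 with each array left out. The value of −0.13 was the same in both cases, since the block also left out L-LY29 replicate 3. With the probe sets of a gene averaged, 2 member genes were called higher, against 1. Of the related ion transport genes, 18 were called higher after quantile normalization, against 11, and 20 had all tested probe sets called in 1 direction, against 35 called on the brightest. Quantile normalization moved the median of all tested genes from −0.26 to 0.06 and the share of called probe sets on the higher side from 40.2% to 55.4%, and equal medians moved them to −0.05 and 50.3%. The cause of these changes was not tested.

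The labels number the arrays of both doses, but nothing says that a number marks a shared animal or day. Deviations from the dose means correlated at 0.02 for the replicate 1 arrays and 0.05 for the replicate 2 arrays. The replicate block used replicates 1 and 2 only, so L-LY29 replicate 3 was left out. With it, 9 of 13 member probe sets were called against 10, and the call on *Atp1b1* 1455949_at was lost (0.56, adjusted p = 0.0516 by limma). Leaving out L-LY29 replicate 3 without a block gave the same difference of 0.56 and kept the call (adjusted p = 0.0195 by limma). No array group was large enough for a test of single outlying arrays.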
